A study of Mus musculus with 6 samples.

Results

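The long noncoding RNA (lncRNA) genes examined here number 10 and were measured across 6 samples of embryonic mouse brain. They are Malat1, Neat1, Miat, Snhg11, Sox2ot, Tug1, Pantr1, Rmst, Dlx6os1 and Gas5. Members were chosen by gene symbol alone: every noncoding RefSeq transcript ID (prefix NR) in the count tables that maps to a listed symbol was kept. This gave 10 IDs of 9 genes, out of 23485 IDs in the tables, of which 3839 are noncoding and 2356 of those are classed as lncRNA by RefSeq. Tug1 had 2 IDs, Snhg11 had 0 matched IDs and each other gene had 1. The samples were whole brains of wild-type C57BL/6 embryos at E15.5 (embryonic day), with 3 female and 3 male samples. A sample is a pool of RNA from several embryos of 1 sex, so every value is a pool average, and samples are also called pools below. All 6 samples share genotype, age and tissue and differ by label only in sex, and no agent was given. The question put to the counts was how high each lncRNA is, how far it varies among samples, and whether it differs between the sexes.

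A long noncoding RNA is a long transcript that is not translated into a known protein. Malat1 gathers in nuclear speckles, which store splicing factors, and Neat1 is the scaffold of paraspeckles, nuclear bodies built on its long form. Miat sits in nuclear domains of its own and carries repeats of the branch-point sequence that splicing factor SF1 binds. Sox2ot, Dlx6os1 and Pantr1 lie beside or across genes of the neural transcription factors Sox2, Dlx5 and Dlx6, and Pou3f3. Rmst is a neural transcript that can bind the SOX2 protein, and Tug1 was first described in the developing retina. Gas5 and Snhg11 are host genes, whose introns carry small nucleolar RNAs (snoRNAs).

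Malat1 and Neat1 are neighbours and share an unusual end. In the NCBIM37 (mm9) assembly with GENCODE gene models, Malat1 lies at chr19:5795690-5802671 on the minus strand as 1 exon of 6982 nt. Neat1 lies at chr19:5824708-5845478 on the same strand as 1 exon of 20771 nt. As background, Malat1 and the long form of Neat1 lack an ordinary poly(A) tail, while the short form of Neat1 has one. An A-rich stretch folds with U-rich stretches upstream into a triple helix, and the enzyme RNase P makes the end by cutting after it. The stretch is shown for both genes because it is the sequence feature that they share. It is written on the transcript strand with the run of A and the GCAAAA after it in capitals.
Malat1, chr19:5795982-5796011, minus strand, NCBIM37: ttccctagctttAAAAAAAAAAAAGCAAAA
Neat1, chr19:5824708-5824737, minus strand, NCBIM37: gagaacgaacgtgagcaggAAAAAGCAAAA
The Malat1 stretch ends 292 nt before the end of the annotated transcript, and the Neat1 stretch ends with it. The letters AAAAGCAAAA, searched on the transcript strand in the last 400 bases, were present in these 2 of the 10 genes. Among 628 other tested lncRNA genes they were present in 4 (0.637%).

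Miat lies at chr5:112642248-112657968 on the minus strand. Its longest GENCODE transcript has 7 exons and 8760 nt and held the letters TACTAAC 6 times. The first 3 in transcript order are printed below with those letters in capitals, since this repeat is the feature for which Miat RNA is known.
Miat, chr5:112646452-112646481, minus strand, NCBIM37: tgtgattaaccTACTAACcaacccagggct
Miat, chr5:112646352-112646381, minus strand, NCBIM37: cgagcatgtccTACTAACcccgcagcagcc
Miat, chr5:112646327-112646356, minus strand, NCBIM37: cagccaaacccTACTAACtctgcaggccag
On the transcript strand, 33 of the 628 other lncRNA genes (5.25%) held TACTAAC at least once and the highest number in 1 gene was 2. Among the other members, Neat1 held it 1 time and the rest 0 times.

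Gas5 lies at chr1:162964553-162968670 on the plus strand, where its longest GENCODE transcript has 4 exons and 2556 nt. RefSeq lists 2 starts for it in GRCm38.p6. As background, Gas5 is known for a terminal pyrimidine tract, the start signal that ribosomal protein genes also use. One of its starts opens with such a tract, whose run from the first base is in capitals.
Gas5, second RefSeq start, plus strand of chr1, GRCm38.p6: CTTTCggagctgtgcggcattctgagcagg
Of 32851 RefSeq starts, 823 (2.51%, members included) opened with C and at least 4 further pyrimidines. The other listed start of Gas5 did not. Among the other members with a start in the table, that of Miat also did, with a run of 6 pyrimidines against 5 in Gas5.

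The other genes were found on 6 chromosomes. In NCBIM37, Tug1 is at chr11:3539797-3548815 on the minus strand and Rmst at chr10:91544491-91627923 on the minus strand. Dlx6os1 is at chr6:6770189-6819533 and Pantr1 at chr1:42705223-42723757, both on the minus strand. Sox2ot is at chr3:34003360-34581541 and Snhg11 at chr2:158201374-158211881, both on the plus strand. Sox2ot is the longest locus, with a gene body of 578182 nt around a transcript of 3486 nt. The GC content of the members' longest transcripts ran from 39.1% in Tug1 to 54.9% in Miat, against a median of 48.0% in the 628 other lncRNA genes. The letters AGCCC, which have been linked to nuclear retention, were found at 0.2 to 1.94 per kb, against 1.42 per kb over the other lncRNA genes. Pantr1 is left out of that range because its GENCODE model holds only 198 nt.

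Totals ran from 4908565 to 10294443 counts per sample, and a count of 0 allows up to 3 counts, or 0.291 to 0.611 CPM (counts scaled to the library total), for counting error only. All other CPM values use library totals scaled by TMM, a method that aligns samples on the bulk of their transcripts, unless stated otherwise. Male sample 1 stood apart: it differed from the other male samples by 34.4 and 44.9 in chi-square per degree of freedom, against 9.03 to 13.8 for all other pairs of 1 sex. Xist, the X-inactivation lncRNA, was at 1021 to 1428 CPM in the female samples and at 0.414 to 1.07 CPM in the male samples, as the sex labels say. The marker sums of this paragraph are in CPM of all counts, without TMM scaling. Summed markers of neurons ran from 2640 to 3478 CPM and those of neural progenitors from 2447 to 2924 CPM. Markers of other head tissues were also present, at 3244 to 4140 CPM for skeletal muscle and 4616 to 9622 CPM for cartilage and bone, with the sexes overlapping. Markers of surface epithelium, with an ID for 3 of 4 genes, were at 869.6 CPM in male sample 1 and at 454.9 to 623 CPM in the other 5 samples. Markers of the choroid plexus, with an ID for 3 of 4 genes, did not overlap, at 422 to 512 CPM in the female and 543 to 659 CPM in the male pools. The part of both lists in the members' values was not tested. In bulk samples, fewer cells of a type and less RNA per cell cannot be told apart.

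Malat1 took most of the members' counts. Its ID, NR_002847, had 78404, 43877 and 71048 counts in female pools 1, 2 and 3, and 20428, 53548 and 88510 in male pools 1, 2 and 3. It ranked between place 2 and place 18 among all IDs of a sample and made up 88.4% to 96.3% of all member counts. The members together took 1.31%, 0.935% and 0.764% of the counts of female samples 1, 2 and 3. They took 0.224%, 0.885% and 0.948% of male samples 1, 2 and 3, so male sample 1 was the lowest of the 6. Without Malat1 the members' share was 0.0436% ± 0.0044 in the female and 0.0399% ± 0.0123 in the male pools (SD, n = 3 each).

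Malat1 was at 12705, 8764 and 7255 CPM in female pools 1, 2 and 3 and at 2114, 8187 and 8857 CPM in male pools 1, 2 and 3. Male sample 1 lay below the other 5, which lay within 1.75-fold of each other, and the sexes overlapped. With male sample 1 the highest sample was 6.01 times the lowest.

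Neat1 (NR_131212) had its extremes in the same samples as Malat1. It was at 212, 116 and 110 CPM in female pools 1, 2 and 3 and at 41.4, 93.9 and 175 CPM in male pools 1, 2 and 3. Female sample 1 was the highest and male sample 1 the lowest, a ratio of 5.13 that became 2.26 without male sample 1. The single ID does not separate the short form of Neat1 from the long form that builds paraspeckles.

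Dlx6os1 (NR_015388), also known as Evf2, is transcribed in the ventral forebrain. It was at 112, 127.6 and 128 CPM in the female pools and at 79.0, 134.8 and 113.6 CPM in male pools 1, 2 and 3. Male sample 1 was the lowest, and the other 5 samples lay within 1.20-fold. Rmst (NR_028262) was at 82.3, 56.9 and 57.4 CPM in the female pools and at 52.1, 92.6 and 83.1 CPM in the male pools. Its low values came from male sample 1 and female samples 2 and 3, so the sexes overlapped.

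Pantr1 (NR_027826), transcribed away from the gene of the cortical factor Pou3f3, was 1 of 2 member IDs with their highest value in male sample 1. It was at 22.4, 29.8 and 42.3 CPM in the female pools and at 48.0, 40.2 and 35.8 CPM in male pools 1, 2 and 3. Female sample 3 lay among the male values. Sox2ot (NR_015580) was at 25.0, 36.8 and 34.1 CPM in the female pools and at 24.9, 39.9 and 32.7 CPM in the male pools. Sample 1 of each sex was the lowest, and the female values lay within the male range.

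Tug1 was counted under a pair of IDs of the same gene. NR_002322 was at 31.6, 37.2 and 30.3 CPM in the female pools and at 25.4, 28.4 and 35.3 CPM in the male pools. NR_002321 had 9, 0 and 26 counts in the female pools and 38, 17 and 21 counts in male pools 1, 2 and 3. These are models of 1 gene, and how reads that fit several IDs were assigned is not stated, so the division between them is uncertain. With both summed, Tug1 was at 34.5 ± 2.91 CPM of all counts in the female and 32.5 ± 5.28 in the male pools (SD, n = 3 each).

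Gas5 (NR_153812) was low, with 18, 15 and 25 counts in the female and 19, 30 and 45 counts in male pools 1, 2 and 3. In CPM these were 2.92, 3.00 and 2.55 in the female and 1.97, 4.59 and 4.50 in the male pools. Male sample 1 was below all female samples and the other male samples above them. Miat (NR_033657) had 0 counts in every female sample and 0, 1 and 1 counts in male pools 1, 2 and 3. At this depth it was at or below the limit that a count of 0 allows, and it did not pass the filter of the edgeR test. Miat and Gas5 each had a single ID in the counts, NR_033657 and NR_153812. Their values say nothing of transcripts listed under other IDs.

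**Figure D1:**
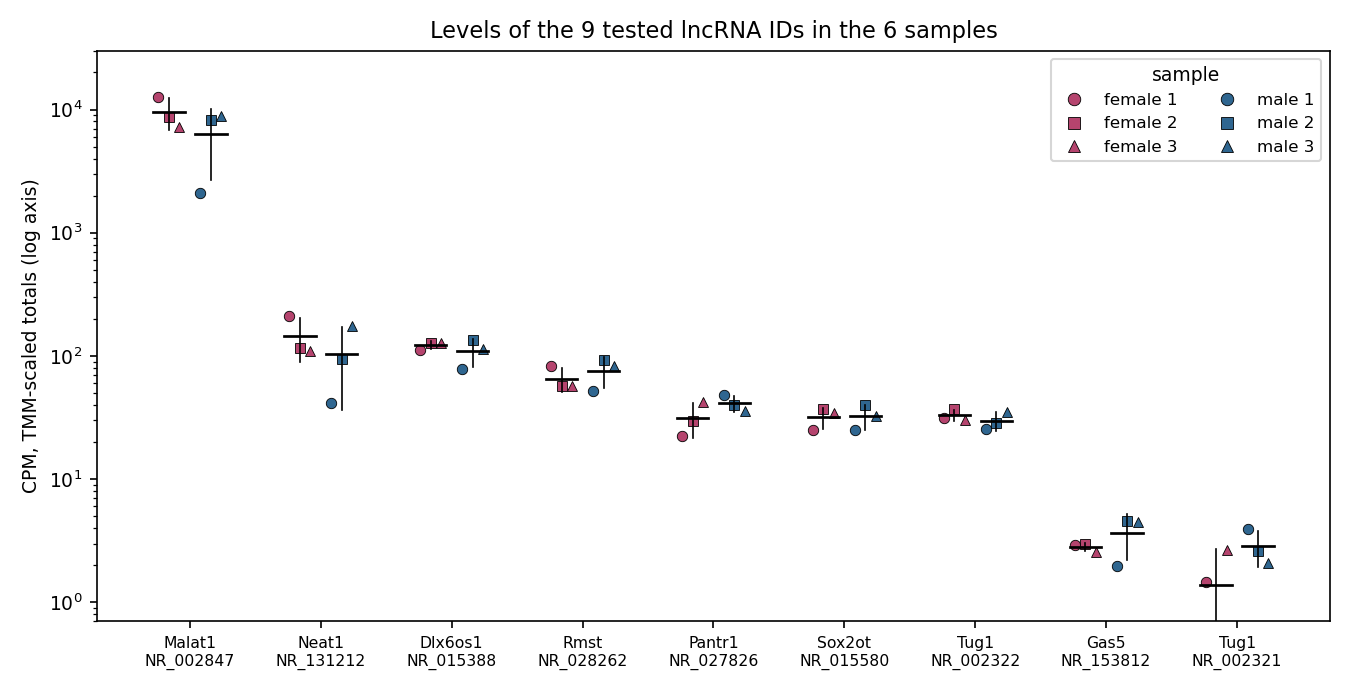
CPM (TMM-scaled totals, log axis) of the 9 tested lncRNA IDs, with 1 point per sample, the horizontal bar at the mean of 3 samples and the vertical bar its SD. Malat1 sits between 2114 and 12705 CPM and Gas5 and the minor Tug1 ID between 1.46 and 4.59 CPM, with a 0 in female sample 2 for the latter below the axis.

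Levels of different genes were compared per length, as CPM per kb of the gene's longest GENCODE transcript, over 6 samples with the SD. Malat1 was at 1143 ± 491 CPM per kb, and its lowest sample, 303, was above every value of the other members. Rmst at 26.2 ± 6.39 and Dlx6os1 at 25.7 ± 4.48 CPM per kb followed and did not differ beyond their spread. Sox2ot at 9.25 ± 1.76, Tug1 NR_002322 at 6.28 ± 0.873 and Neat1 at 6.01 ± 2.92 CPM per kb overlapped. On this scale the highest Neat1 sample, 10.2, was below the lowest of Rmst and of Dlx6os1. This place rests on the length of the long form, since reads of the much shorter form are counted under the same ID. Gas5 at 1.27 ± 0.416 CPM per kb was below the lowest sample of each of these, and the minor Tug1 ID was at 0.425 ± 0.265. The Gas5 value rests on its single ID and on a transcript of 2556 nt, and would be higher with a shorter one. No value is given for Pantr1, whose model is too short.

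The members differed in how steady they were. Tug1 NR_002322 had the smallest coefficient of variation (CV, the SD over the mean of the 6 samples) at 13.9%, followed by Dlx6os1 at 17.4% and Sox2ot at 19.1%. Rmst was at 24.4%, Pantr1 at 25.3%, Gas5 at 32.7% and the minor Tug1 ID at 62.2%. Malat1 at 42.9% and Neat1 at 48.6% were above 98.0% and 98.8% of the 8358 tested IDs that averaged at least 50 counts. Over the 971 tested lncRNA IDs, of which 206 averaged that many counts, the median CV was 45.6%. It was 41.1% over 26 IDs of other named lncRNAs and 21.45% over 16 IDs of other snoRNA host lncRNAs, both listed below. Without male sample 1 the CV was 22.8% for Malat1, 35.4% for Neat1 and 8.1% for Dlx6os1.

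Male sample 1 was the lowest sample for 7 of the 9 tested IDs. As a percent of the median of the other 5 samples, it was at 24.1% for Malat1, 35.6% for Neat1, 61.9% for Dlx6os1, 63.2% for Rmst and 65.6% for Gas5. It was at 73.1% for Sox2ot and 80.2% for Tug1 NR_002322. The exceptions were Pantr1 at 134% and Tug1 NR_002321 at 187%. Of the 8358 tested IDs that averaged at least 50 counts, 63, Malat1 included, were at or below the Malat1 ratio in that sample.

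**Figure D2:**
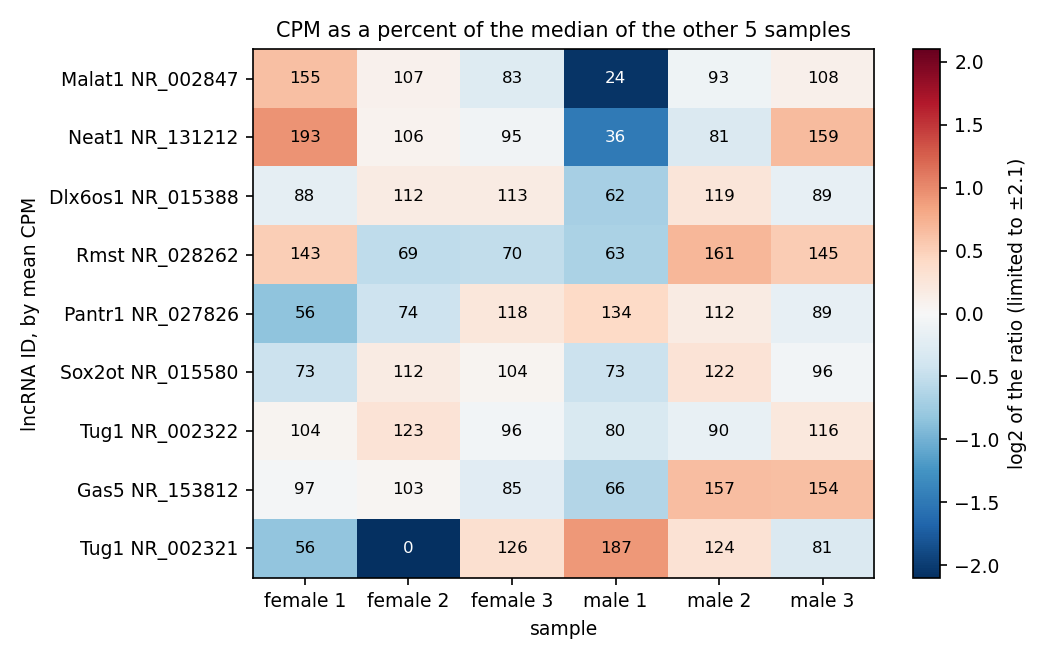
CPM of each tested lncRNA ID (rows) in each sample (columns), printed as a percent of the median of the other 5 samples and coloured by the log2 of that ratio. The male 1 column is the lowest in 7 of 9 rows, from 24.1% for Malat1 upward.

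Other lncRNAs moved the same way in male sample 1. Of 199 lncRNA IDs that averaged at least 50 counts, members left out, 108 (54.3%) had their lowest value there, at a median of 77.4% of the other samples. For 62 of them (31.2%) male sample 1 was below 0.5 times that median. Of 8051 mRNA IDs, 1480 (18.4%) were lowest there, with a median of 107%, and 147 (1.83%) were below 0.5 times. In each other sample between 0% and 2.01% of the lncRNA IDs were that low. The same sample had the highest levels of the structured RNAs Rpph1, the RNA of RNase P, at 16814 CPM and Rmrp at 5671 CPM. The other 5 samples had 4561 to 10405 CPM of Rpph1. NR_046233, taken here as the ribosomal RNA precursor Rn45s although the symbol table used does not name it, was at 45394 CPM in male sample 1, or 358% of the median of the other 5 samples, against 247% for Rpph1 and 263% for Rmrp. Rmrp did not overlap between the sexes, at 1149 to 2157 CPM in the female and 2966 to 5671 CPM in the male pools (log2 fold change 1.43, edgeR adjusted p = 0.127). The sum of Rpph1 and Rmrp, in CPM of all counts without TMM scaling, also did not overlap. It was at 5824 to 8963 CPM in the female and 9340 to 21105 CPM in the male pools. Short transcripts of male sample 1 were higher and long ones lower than the mean of all samples, by a median log2 difference of 0.33 below 1000 nt and -0.27 above 8000 nt. The same medians were -0.19 and 0.20 in female sample 1, -0.16 and 0.10 in female sample 2, and 0.14 and -0.09 in male sample 2. Between the sexes the median log2 fold change was 0.28 below 1000 nt and -0.20 above 8000 nt. With the length trend removed, the log2 fold change was -0.21 for Neat1 and -0.46 for Malat1. The part of the structured RNAs in the members' values was not tested.

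**Figure D3:**
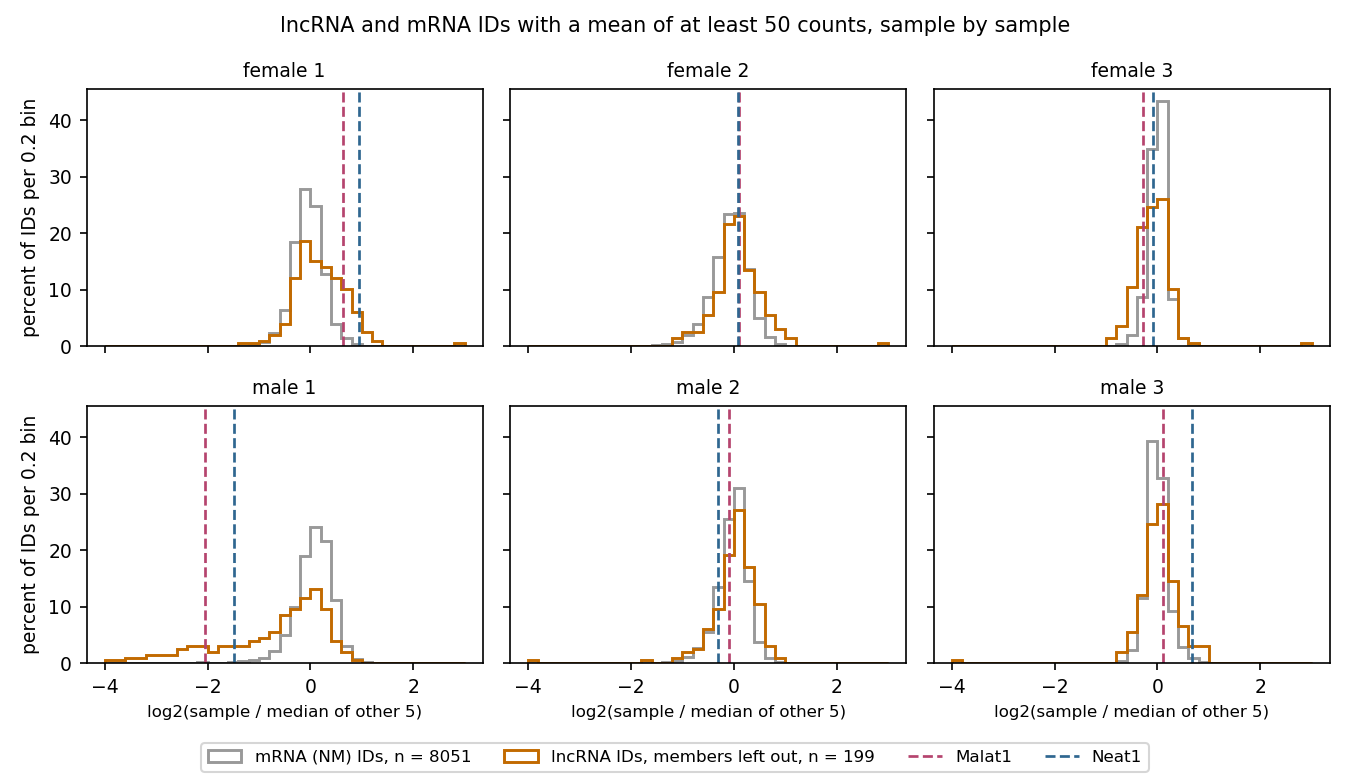
Distribution of the log2 ratio of each sample to the median of the other 5, for 8051 mRNA IDs (grey) and 199 lncRNA IDs without the members (orange) with a mean of at least 50 counts, as percent of IDs per bin of 0.2. Values past the axis are drawn in the end bins, and dashed lines mark Malat1 and Neat1. The lncRNA distribution of male 1 has a long left tail, with 31.2% of IDs below 0.5 times the other samples.

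Malat1 and Neat1 had the highest Pearson's r of the 36 pairs of member IDs. Their log2 CPM over the 6 samples had a Pearson's r of 0.94 (exact permutation p = 0.00694, adjusted p = 0.125 over 36 pairs of member IDs). Spearman's rho was 0.94 (exact permutation p = 0.0167, adjusted p = 0.15). Without female sample 1 and male sample 1, r was 0.52, so the relation rests on those samples. Rmst and Gas5 followed with an r of 0.85 (exact permutation p = 0.0292, adjusted p = 0.35) and a rho of 0.83 (exact permutation p = 0.0583, adjusted p = 0.263), and r was 0.64 without male samples 1 and 2. Sox2ot and Dlx6os1 had an r of 0.81 (exact permutation p = 0.00417, adjusted p = 0.125) and a rho of 0.94 (exact permutation p = 0.0167, adjusted p = 0.15). Their r was 0.85 without female sample 1 and male sample 1. The minor Tug1 ID and Pantr1 had the same rho of 0.94 (exact permutation p = 0.0167, adjusted p = 0.15) at an r of 0.55 (exact permutation p = 0.24, adjusted p = 0.51), and their r was 0.99 without female sample 2 and male sample 1. Pantr1 ran against Malat1, with a rho of -0.94 (exact permutation p = 0.0167, adjusted p = 0.15) and an r of -0.76 (exact permutation p = 0.101, adjusted p = 0.463), which was -0.78 without female sample 1 and male sample 1. It also ran against Neat1, with a rho of -0.89 (exact permutation p = 0.0333, adjusted p = 0.2) and an r of -0.79 (exact permutation p = 0.0681, adjusted p = 0.463), which was -0.30 without the same samples, so this relation rests on them. The Tug1 IDs ran against each other, with a rho of -0.89 (exact permutation p = 0.0333, adjusted p = 0.2). Their r was -0.77 (exact permutation p = 0.0542, adjusted p = 0.4625), and -0.42 without female sample 2 and male sample 1. No pair of the 36 passed the adjustment.

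Across all tested IDs that averaged at least 50 counts, the pattern most like that of Malat1 was that of Kcnq1ot1 (NR_001461), an imprinted nuclear lncRNA. It was at 1775, 1229 and 949 CPM in the female pools and 179, 1111 and 1224 CPM in male pools 1, 2 and 3, with an r of 0.998 to Malat1 over 6 samples. The second was E330033B04Rik, with an r of 0.998 and a 7.53-fold range. An r above 0.95 to Malat1 was found for 213 of 8357 IDs, and for 45 of the 205 lncRNAs among them. Both named IDs have their lowest value in male sample 1, as Malat1 has. The IDs most like Neat1 were Adam4 and Sned1 (r of 0.997 and 0.994), and those most like Pantr1 were Cstf2t and Hsp90ab1 (0.991 and 0.988). For Sox2ot they were Fnip1 and Dlgap5, for Tug1 NR_002322 Tdrd3 and Abca5, and for Rmst Rrnad1 and Mettl17. For Dlx6os1 they were Gm15246 and Cep135, and for Gas5 Ipo8 and Gm13648, with r from 0.971 to 0.998 among these 10. With 8357 candidates and 6 samples, high values of r are found for any pattern.

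**Figure D4:**
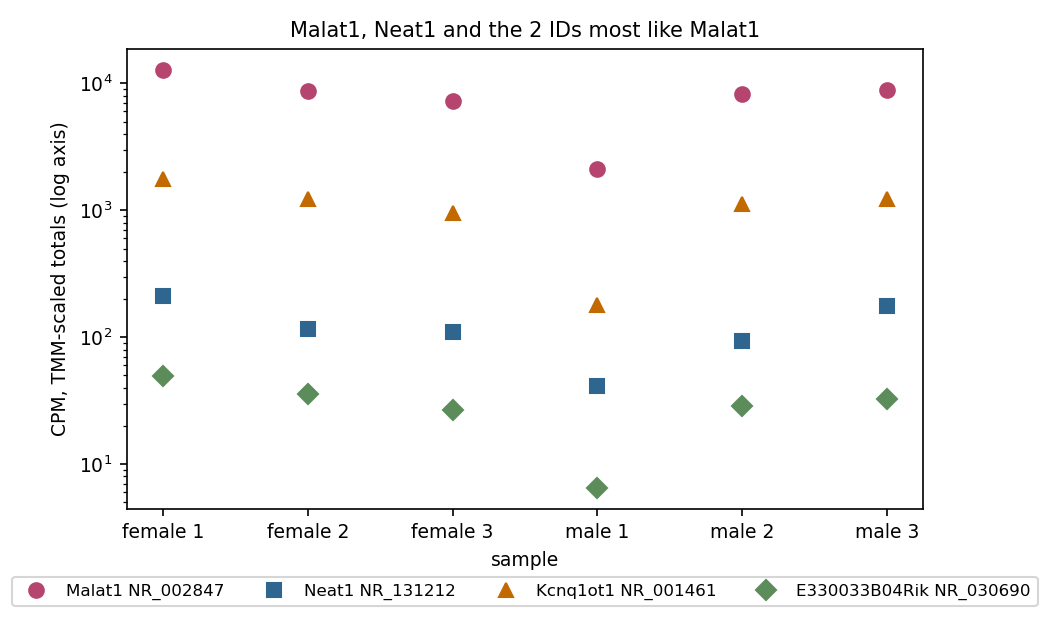
CPM (TMM-scaled totals, log axis) of Malat1, Neat1 and the 2 IDs whose pattern was most like Malat1, in each of the 6 samples. All 4 have their lowest value in male 1, where Malat1 was at 2114 CPM and Kcnq1ot1 at 179 CPM.

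Between the sexes, no member passed the test. In edgeR's quasi-likelihood test with Benjamini-Hochberg adjustment over 13374 IDs, 0 of the 9 tested member IDs had an adjusted p under 0.05, against 4 of all IDs (0.0299%). At an unadjusted p under 0.05 there were also 0 of 9, against 11.5% of all IDs. The CPM of the sexes did not overlap for 0 of 9 member IDs, against 17.1% of all tested IDs and 14.1% of 971 lncRNA IDs. The median log2 fold change of male against female was 0.02 over the members and -0.01 over all tested IDs. DESeq2 gave an adjusted p for 7 of the 9 member IDs, not for Gas5 and the minor Tug1 ID, and called 0 of those 7. It called 1.91% of the 5595 IDs to which it gave one.

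The nuclear pair had the widest intervals among the well counted members. Malat1 was at 9575 ± 2814 CPM in the female and 6386 ± 3715 CPM in the male pools (SD, n = 3 each), a log2 fold change of -0.58 (SE 0.38, 95% interval -1.41 to 0.24, edgeR adjusted p = 0.558). Without male sample 1 the log2 fold change was -0.17, without female sample 1 -0.33 and without male sample 3 -0.88. Malat1 passed the threshold under 2 alternatives, with an adjusted p of 0.0152 in edgeR without a filter on low counts and of 0.00359 in edgeR with 1 RUVr factor. An RUVr factor is an estimate of unwanted variation taken from the residuals of the same fit. Those fits called 1.18% and 0.269% of all IDs. Neat1 was at 146 ± 57.4 CPM in the female and 103 ± 67.4 CPM in the male pools, a log2 fold change of -0.50 (SE 0.38, 95% interval -1.32 to 0.33, edgeR adjusted p = 0.628). It was -0.12 without male sample 1, -0.13 without female sample 1 and -1.11 without male sample 3.

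For the neural lncRNAs the intervals were narrower. Dlx6os1 was at 122.6 ± 9.20 and 109 ± 28.2 CPM in female and male samples, a log2 fold change of -0.17 (SE 0.17, edgeR adjusted p = 0.722). Sox2ot was at 31.9 ± 6.19 and 32.5 ± 7.48 CPM, with a log2 fold change of 0.02 (SE 0.21, adjusted p = 0.979). Rmst was at 65.5 ± 14.5 and 75.9 ± 21.2 CPM, with a log2 fold change of 0.21 (SE 0.21, adjusted p = 0.717). Pantr1 had the smallest p of the members, at 31.5 ± 10.1 and 41.4 ± 6.18 CPM and a log2 fold change of 0.38 (SE 0.22, 95% interval -0.08 to 0.85, adjusted p = 0.505). For Pantr1 this interval holds both no difference and a male level up to 0.85 higher on the log2 scale.

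Tug1 NR_002322 had a log2 fold change of -0.15 (SE 0.18, adjusted p = 0.772) and the minor Tug1 ID one of 0.95 (SE 0.71, adjusted p = 0.612). The latter was 1.88 without female sample 3 and 0.45 without female sample 2. Gas5 was at 2.82 ± 0.236 CPM in the female and 3.69 ± 1.49 CPM in the male pools, a log2 fold change of 0.38 (SE 0.43, adjusted p = 0.754). In an exact permutation test on the IDs summed per gene, two-sided over the 20 assignments of 6 samples, p ran from 0.3 for Pantr1 to 1 for Sox2ot, and it was 0.4 for Miat, on the counts of 0 and 1 given above. The smallest p this design allows is 0.1. A p that misses the threshold does not show that the sexes are alike.

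**Figure D5:**
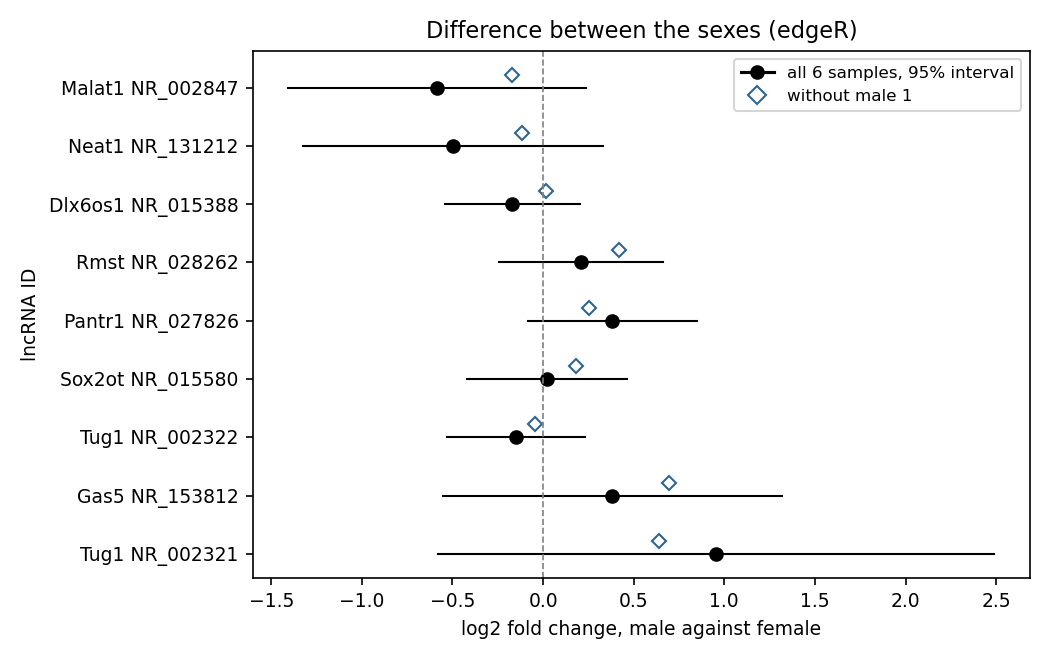
Log2 fold change of male against female for the 9 tested lncRNA IDs (edgeR, circles) with 95% intervals, and without male sample 1 (diamonds). Every interval from 6 samples includes 0, and the Malat1 value moves from -0.58 to -0.17 without male 1.

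Leaving out a sample changed which members overlapped between the sexes. Without male sample 1, Rmst and Gas5 had higher values in both remaining male samples than in every female sample, against 26.6% of all tested IDs that then did not overlap. Their log2 fold changes were 0.42 for Rmst and 0.69 for Gas5 (edgeR adjusted p = 0.416 and 0.634). Without female sample 3, Pantr1 and the minor Tug1 ID did not overlap, against 36.8% of all IDs. Without male sample 3, Neat1 and Tug1 NR_002322 did not overlap, against 34% of all IDs.

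Genes beside the members were read in the same fit. Sox2, the stem cell factor whose gene lies inside the Sox2ot locus on the same strand, was at 73.1, 79.1 and 101.3 CPM in the female pools and at 109.4, 122.3 and 101.5 CPM in male pools 1, 2 and 3. The values did not overlap, by a narrow margin, with a log2 fold change of 0.39 (SE 0.15, edgeR adjusted p = 0.378), where Sox2ot had 0.02. Dlx6, overlapped by Dlx6os1 on the opposite strand, was at 6.13 ± 0.927 and 6.94 ± 3.35 CPM, with a log2 fold change of 0.18 (adjusted p = 0.873). Dlx5 had no ID among those tested, so no value is given for it. Whether strand was used in counting is not stated, so reads of overlapping genes may be assigned to either.

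Pou3f3, whose gene starts 30234 nt from Pantr1 on the opposite strand, was at 136.3 ± 11.7 and 160.7 ± 25.2 CPM in female and male samples, with a log2 fold change of 0.24 (adjusted p = 0.527). Both Pantr1 and Pou3f3 had their highest value in male sample 1. Frmd8, 4224 nt from Neat1, and Ltbp3, 37158 nt from Malat1, did not overlap between the sexes, with log2 fold changes of 0.36 (adjusted p = 0.416) and -0.40 (adjusted p = 0.397). Further nearest tested genes were Morc2a for Tug1, Nedd1 for Rmst and Tfip11 for Miat, with log2 fold changes of 0.08, -0.08 and -0.09. Ralgapb, nearest to Snhg11, had at most 10 counts in a sample under the ID tested. None of these neighbours passed the test.

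The protein partners of the nuclear lncRNAs were read as lists. Of 12 tested IDs of 11 paraspeckle protein genes, from 16 listed, 0 were called, and the median log2 fold change was -0.13. Taf15 had an unadjusted p under 0.05. This RNA-binding protein was at 62.1 ± 18.4 CPM in the female and 40.2 ± 4.75 CPM in the male pools (log2 fold change -0.62, edgeR adjusted p = 0.341). Sfpq, a core paraspeckle protein, was at 236 ± 16.3 and 210 ± 21.6 CPM with a log2 fold change of -0.17 (adjusted p = 0.603). Of 16 IDs of 14 nuclear speckle genes, from 19 listed, 0 were called and the median was -0.12. Male sample 1 was the lowest sample for 11 of these 16, and for 6 of the 12 paraspeckle IDs, against 3379 of all 13374 tested IDs. Srrm2, a large scaffold of speckles, was at 2055 ± 295 CPM in the female and 1407 ± 305 CPM in the male pools (log2 fold change -0.55, SE 0.16, adjusted p = 0.341), and male sample 1 was at 65.9% of the other samples. DESeq2 called Srrm2, with an adjusted p of 0.0418.

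Of 9 IDs of nonsense-mediated decay factors, the pathway that degrades Gas5 RNA, 0 were called and the median log2 fold change was -0.09. Upf2, a core factor of the pathway, had an unadjusted p under 0.05, with a log2 fold change of -0.41 (edgeR adjusted p = 0.344). Of 16 IDs of other snoRNA host lncRNAs, the class of Gas5 and Snhg11, 0 were called and the median was -0.02. Zfas1 was at 31.1 ± 4.25 and 41.0 ± 5.84 CPM, with a log2 fold change of 0.39 (adjusted p = 0.415).

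Of 26 IDs of 21 other named lncRNA genes, from 28 listed, Xist was called, lower in the male pools (log2 fold change -10.9, edgeR adjusted p = 4.67e-11). The median log2 fold change was -0.28, and 3 of 26 were higher in the male pools. Jpx, an activator of Xist, was at 14.0 ± 1.89 and 6.14 ± 3.96 CPM (log2 fold change -1.17, adjusted p = 0.341). Fendrr (NR_130109) had a log2 fold change of -2.56 (adjusted p = 0.403) with at most 14 counts in a sample. Over all 971 tested lncRNA IDs the median was -0.33, against 0.02 over the members. Without male sample 1 these medians were -0.11 and 0.18. With 10 or more counts required in every sample they were -0.23 over 407 lncRNA IDs and -0.08 over 8 member IDs. The sets differ in level: 206 of the 971 lncRNA IDs and 7 of the 9 member IDs averaged at least 50 counts.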

How the data were processed

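Total RNA of 3 female and 3 male pools was made into stranded libraries, as the study's methods state. The authors trimmed reads with Trimmomatic 0.32, aligned them to mm9 with TopHat2 2.1.1, assembled transcripts with Cufflinks 2.2.1 and counted them with featureCounts 1.5.1, per the submitters' processing notes. The values deposited by the authors are raw counts per RefSeq ID, 1 table per sample. Treatment of strand, of reads aligned to several places and of reads shared by IDs is not stated. The labels give no batch or date. The study calls the replicates biological.

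Symbols came from RefSeq (23359 IDs named, 126 without a symbol), and positions, lengths and transcript sequences from GENCODE on NCBIM37. Starts came from RefSeq on GRCm38.p6. The test took the 13374 IDs that reached 10 counts in any sample and used edgeR 4.0.16 (TMM, quasi-likelihood F test, Benjamini-Hochberg) in R 4.3.3. The study itself compared the sexes with DESeq2 and RUVr factors, whose number is not stated. The main test here leaves them out, since they come from the residuals that the test uses. Alternatives used other normalisations and filters, DESeq2 1.42.0, 1 RUVr factor, a replicate block, IDs summed per gene, removal of a length trend and leaving out each sample. Likeness and pairs used log2 CPM with a prior count of 2. The gene level test used log2(CPM + 0.5) of all counts. Scripts were tested on simulated data. The members and lists were chosen with earlier results of these data known. List genes are named where the unadjusted p is under 0.05, neighbour genes always, except for items not reported here, and for likeness the 2 IDs with the highest r. Sfpq, Rpph1 and Rmrp were named after their values were seen.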

Additional observations from a re-analysis of the deposited data

How the results depend on the processing

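Of 131 log2 fold changes of member IDs with an adjusted p under the alternatives, 125 kept their direction and their side of the threshold. DESeq2 gave no adjusted p for Gas5, the minor Tug1 ID and Dlx6. The number of IDs called was 276 without a low-count filter, 1 with 10 or more counts required in every sample, 107 with DESeq2 and 36 with 1 RUVr factor, against 4. Without the filter the fit gave its prior degrees of freedom as infinite, against 9.02. Member IDs called were 1 (Malat1) without the filter, with a log2 fold change of -0.56, and 1 (Malat1) with the RUVr factor, at -0.75, and 0 under the other alternatives. Nuclear speckle IDs called were 1 without the filter and 1 with DESeq2 (Srrm2 in both). Other named lncRNAs called were 3 without the filter (Xist, Kcnq1ot1 and Jpx), 0 with the stricter filter, which Xist does not pass, and 2 with the RUVr factor (Xist and Kcnq1ot1), against 1. The log2 fold change ran from -0.88 to -0.17 for Malat1 and from -1.11 to -0.12 for Neat1.

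Leaving out 1 sample at a time gave 4 to 51 IDs called, the highest of them without female sample 3. The count was 12, 8 and 7 when male samples 1, 2 and 3 were dropped in turn. Member IDs not overlapping ran from 0 to 2, and genes whose exact p was 0.1, the smallest such a design allows, from 0 to 2. These genes were Pantr1 without female sample 3, Neat1 and Tug1 without male sample 3, and Gas5 and Miat without male sample 1, where Miat had counts of 0 and 1 only. The highest over the lowest sample was 1.75 for Malat1 and 2.26 for Neat1 without male sample 1, an alternative chosen after seeing the data.

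Some directions turned. With upper-quartile factors Sox2ot was at -0.029. The median over the members ran from -0.13 without female sample 1 to 0.18 without male sample 1. Leaving out 1 sample at a time, log2 fold changes ran from -0.14 to 0.18 for Sox2ot, -0.34 to 0.015 for Dlx6os1, -0.30 to 0.083 for Tfip11, -0.011 to 0.18 for Morc2a and -0.29 to 0.38 for Dlx6. On summed gene levels the log2 differences ran from -0.18 to 0.22 for Sox2ot, -0.22 to 0.014 for Tug1, -0.012 to 0.46 for Rmst and -0.41 to 0.042 for Dlx6os1. The cause of these changes was not tested.

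Female and male samples share replicate numbers. Their deviations from the sex means correlated at r of -0.29, -0.06 and -0.20 for numbers 1, 2 and 3 over 13374 IDs, and no sample correlated best with its own number. The numbers are therefore not read as pairs. With the replicate number as a block, 4 IDs were called, as without it, and 0 of the member IDs. The block changed no call among the members or the lists. Depth limits Gas5, the minor Tug1 ID and Miat, which had at most 45, 38 and 1 counts in a sample.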
